A study of Mus musculus with 7 samples.

Results

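Examined here are 6 genes whose loci held some of the highest Oct1 scores of this ChIP-seq series, namely Ndufa4l2, Polr2a, Zmiz2, Kdm2b, Crlf2 and Fbxo47. These 6 genes, of 21883 protein-coding genes in the annotation, were chosen by the authors' peak scores in the Oct1 lists, where their best peaks ranked between 1 and 11, so their scores and ranks are a description of the choice and carry no test. Chromatin immunoprecipitation followed by sequencing (ChIP-seq) recovers the DNA that a protein is bound to. The 7 samples all came from parental mouse embryonic stem cells (ESCs) or their derivatives, each group with 1 library. Oct1 was profiled in undifferentiated ESCs and at day 3 and day 6 of differentiation towards mesoderm, and Oct4 in undifferentiated ESCs. The other 3 samples were inputs and were not analysed here. Differentiation used Bmp4 for 2 days, followed by Rspo3 and LDN-193189, a BMP receptor inhibitor for 4 days. The labels name no strain or cell line and no purity of the differentiated cultures, and no RNA was measured, so the state of the cells was not checked.

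Oct1, encoded by Pou2f1, is a widely expressed transcription factor of the POU family, and Oct4, encoded by Pou5f1, is the family member that maintains pluripotency. Both hold a pair of DNA-binding domains and bind the octamer, which reads ATGCAAAT. Both can also bind as a dimer to a palindrome made of ATGCAT repeated directly, known as the MORE. Polr2a has been described before as an Oct1 target. Of the 6 genes, 3 encode proteins of transcription and chromatin. Polr2a makes the catalytic subunit of RNA polymerase II, Zmiz2 a zinc finger coactivator related to the PIAS proteins, and Kdm2b a CpG-binding histone demethylase that brings the Polycomb complex PRC1.1 to CpG islands. The other 3 have separate roles: Ndufa4l2 is a mitochondrial protein induced in hypoxia, Crlf2 is the receptor chain for the cytokine TSLP, and Fbxo47 is an F-box protein needed in meiotic germ cells.

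Promoter sequence from RefSeq (GRCm38.p6) was at hand for 3 of the 6 genes, Polr2a, Kdm2b and Crlf2. None was matched for Ndufa4l2, Zmiz2 and Fbxo47. Each window of 300 bases runs from 250 before to 50 after an annotated start site, and all 3 below lie on the minus strand. They are shown because they lie under a leading Oct1 peak. Capitals mark the direct repeat of ATGCAT in Kdm2b and a TATAAA box in Polr2a. The windows are Kdm2b at chr5:122900318-122900617, Polr2a at chr11:69758584-69758883 and Crlf2 at chr5:109558944-109559243.
Kdm2b: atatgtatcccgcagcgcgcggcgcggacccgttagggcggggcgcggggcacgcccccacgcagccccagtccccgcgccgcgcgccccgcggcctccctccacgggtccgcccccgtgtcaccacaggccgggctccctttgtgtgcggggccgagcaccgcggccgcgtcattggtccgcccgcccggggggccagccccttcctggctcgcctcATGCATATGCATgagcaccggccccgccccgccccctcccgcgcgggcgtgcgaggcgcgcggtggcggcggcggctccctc
Polr2a: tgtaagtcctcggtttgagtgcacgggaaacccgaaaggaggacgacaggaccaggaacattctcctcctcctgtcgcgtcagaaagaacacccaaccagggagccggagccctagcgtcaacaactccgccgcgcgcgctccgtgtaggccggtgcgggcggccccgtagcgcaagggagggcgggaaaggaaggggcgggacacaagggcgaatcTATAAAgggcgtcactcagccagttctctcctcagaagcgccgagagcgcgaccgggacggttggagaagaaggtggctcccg
Crlf2: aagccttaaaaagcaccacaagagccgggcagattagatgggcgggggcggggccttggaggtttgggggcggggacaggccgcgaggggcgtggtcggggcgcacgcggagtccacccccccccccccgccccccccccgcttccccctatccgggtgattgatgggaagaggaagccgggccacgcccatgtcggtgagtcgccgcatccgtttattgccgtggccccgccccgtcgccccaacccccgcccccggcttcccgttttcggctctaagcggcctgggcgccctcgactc

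The Kdm2b window is the internal start site of the gene. Kdm2b spans chromosome 5, 122870664 to 122989270, and its windows describe 4 start sites, of which 2, at 122900367 and 122900350, lie close together inside the gene body. Transcripts from the internal promoter encode a short protein that lacks the demethylase domain. The direct repeat, at 122900388 to 122900399, was centred 26 bp before the start at 122900367. Its centre was 27 bp from the midpoint of the ESC Oct1 peak, 12 bp from that of day 3 and 98 bp from that of day 6. The repeat was rare: it occurred in 3 of 32817 promoter windows (0.00914%), 2 of them the overlapping internal windows of Kdm2b and the other that of Gm34097, which overlapped no peak in any list. The start sites at the far end of Kdm2b, 122988507 and 122989099, held no direct repeat, and the single listed peak at either was a weak one at day 6 over the start at 122989099 (chromosome 5, 122989091 to 122989640, score 211, rank 6127 of 7758).

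No window of the 3 genes held the exact octamer, which is found in 1.74% of all promoter windows. With 1 letter allowed to differ, windows of Kdm2b matched, against 18.6% of all windows. In the internal windows of Kdm2b these matches overlapped the direct repeat, and in the window at 122988458 to 122988757 they stood alone. TATAAA occurred in the Polr2a window, its first base 33 bp before the start site, and in 13.6% of all windows. The ETS core CCGGAAG (8.86% of all windows) was in no window of the 3 genes. All motifs were searched on both strands. The window covers 300 of the 1300 bp of the Polr2a peak, and it lies partly outside the ESC peak of Crlf2, so the letters of the rest of these peaks were not searched. The guanine and cytosine content was 63.7% for Polr2a, 79.7% for the Kdm2b window above and 71.7% for Crlf2, against a median of 52.7% over all windows.

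The scores come from the authors' lists as whole numbers without a unit, so ranks are compared only within a list. The ESC Oct1 list held 17709 peaks, the day 3 list 4867, the day 6 list 7758 and the Oct4 list 22817. For each gene, the peak with the highest ESC Oct1 score in its body or 10 kb to either side is called its leading site. The sites were found in all 3 Oct1 lists, which the choice of the genes favoured. Their order at day 6 differed from that in the other Oct1 lists. In ESCs the leading sites took ranks 1 to 5 and 7, and at day 3 ranks 1 to 5 and 11. At day 6 they took ranks 1 to 4, 6 and 7, but Zmiz2, Kdm2b and Crlf2 stood ahead of Ndufa4l2 and Polr2a. This order depended on the quantity ranked: by score per width at day 6, Zmiz2 ranked 1, Fbxo47 2, Ndufa4l2 3, Kdm2b 4, Crlf2 6 and Polr2a 13.

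**Figure D1:**
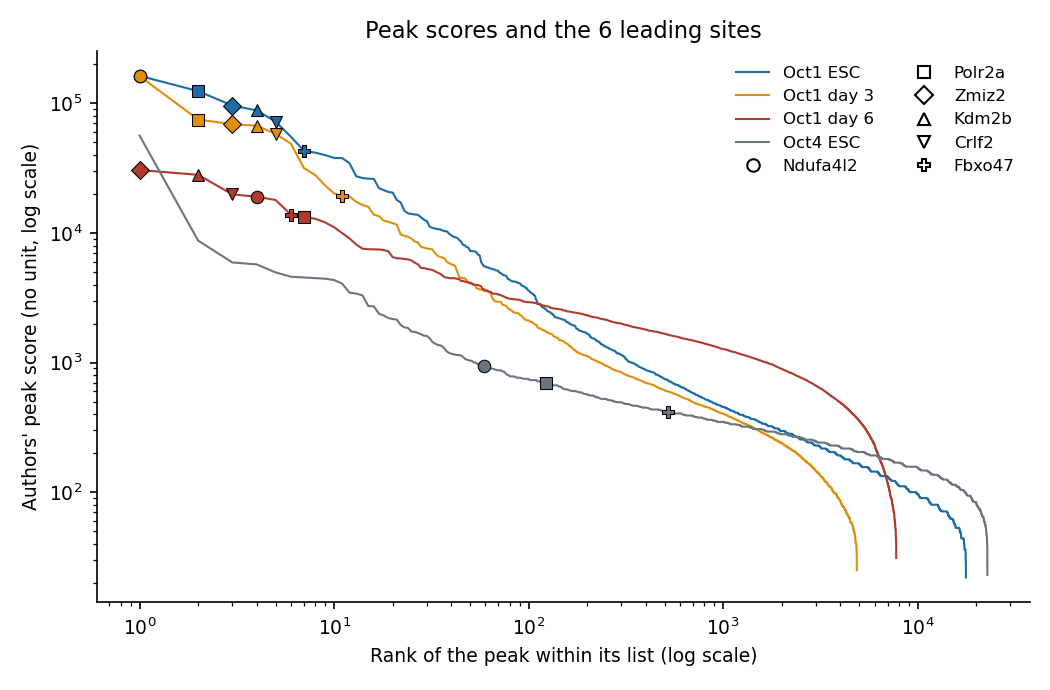
Authors' score (vertical, log scale, no unit) against the rank of each peak in its own list (horizontal, log scale) for the 4 lists, 1 library each. Lines are all peaks and symbols are the leading sites of the 6 genes, which lie at ranks 1 to 11 of the Oct1 lists and at ranks 59, 123 and 521 of the Oct4 list for the 3 sites with an Oct4 peak.

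The Polr2a site lay over and upstream of the promoter of the polymerase gene (gene ID 20020; chromosome 11, 69733997 to 69758633). The ESC Oct1 peak ran from 69758301 to 69759600, with its midpoint at -317 bp from the annotated start site at 69758633. Its score was 124348 in ESCs (rank 2), 74978 at day 3 (rank 2) and 13341 at day 6 (rank 7). The peak was 1300 bp wide in ESCs, 1490 bp at day 3 and 1540 bp at day 6, which are width percentiles 97.4, 99.7 and 99.2 of the respective lists. The later midpoints moved towards the gene, by 95 bp at day 3 and 210 bp at day 6. An Oct4 peak of 600 bp (69758831 to 69759430, score 690, rank 123) lay wholly inside the ESC Oct1 peak, 180 bp further upstream by its midpoint. It did not cover the start site, which all 3 Oct1 peaks did. Slc35g3, a solute carrier gene, lies 284 bp from the ESC peak, and Zbtb4 lies 6312 bp away, so the site is not assigned to Polr2a by position alone.

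The Zmiz2 site lay just inside the gene at its lower coordinate (gene ID 52915; chromosome 11, 6388799 to 6406162). In ESCs it ran from 6388861 to 6389790, and its midpoint lay 5 bp away at day 3 and 45 bp away at day 6. The score was 96154 in ESCs (rank 3), 69093 at day 3 (rank 3) and 30599 at day 6, the highest of that list. No other gene lay within 10 kb of it. There was no Oct4 peak at the site. Oct4 peaks of middling score were listed inside the gene (6395501 to 6396080, score 144, rank 11330) and 419 bp past its upper end by midpoint (6406311 to 6406850, score 130, rank 13017), and neither position had an Oct1 peak. At day 3 and day 6 an Oct1 peak stood at the far edge of the 10 kb flank, over the start site of Ppia, the cyclophilin A gene. It had score 154 at day 3 (rank 2886) and 933 at day 6 (rank 1872), and none was listed there in ESCs.

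The Kdm2b site (gene ID 30841) scored 88299 in ESCs (rank 4), 67255 at day 3 (rank 4) and 28086 at day 6 (rank 2). The peak ran from 122899931 to 122900910 in ESCs, and its midpoint was at -53 bp from the internal start site at 122900367. It moved by 15 bp at day 3 and 125 bp at day 6, as the peak widened from 980 and 970 bp to 1230 bp. Here too there was no Oct4 peak. A weak site elsewhere in the gene was shared by both factors in ESCs, with an Oct1 peak at 122940761 to 122941370 (score 192, rank 3889) and an Oct4 peak at 122940781 to 122941440 (score 192, rank 5685). It had no peak at day 3 or day 6. Further Oct4 peaks in the gene body, with scores 168 and 125, had no Oct1 partner. The internal promoter of Kdm2b thus carried Oct1 peaks of rank 2 to 4 and no Oct4 peak, and the Oct4 peaks of the gene lay at other places.

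The Ndufa4l2 site held the highest score of the ESC list (163148) and of the day 3 list (162276), and scored 19045 at day 6 (rank 4). It lay across the lower end of the gene (gene ID 407790; chromosome 10, 127509274 to 127517154), from 127508921 to 127510060 in ESCs. The interval narrowed from 1140 bp in ESCs to 1010 bp at day 3 and 830 bp at day 6, each inside the one before. The midpoint moved by 15 and 35 bp. An Oct4 peak of 610 bp (127509081 to 127509690, score 933, rank 59) was nested in it, 105 bp from the ESC Oct1 midpoint. Among the 3 sites with both factors it had the best Oct4 rank. Stac3, a muscle gene, lies 98 bp from the ESC peak. Shmt2, a mitochondrial one-carbon enzyme gene, and R3hdm2 lie 7063 and 9537 bp away.

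The Crlf2 site was the broadest (gene ID 57914; chromosome 5, 109554709 to 109559128, a gene of 4420 bp). The leading ESC peak covered 2410 bp (109556691 to 109559100, score 72304, rank 5) and the day 3 peak 2770 bp (score 58259, rank 5). At day 6 the region was listed as 2 peaks, 1 of 1030 bp at the start site of the gene (109558381 to 109559410, score 19834, rank 3) and 1 of 3960 bp over the rest of the gene body (109554051 to 109558010, score 7553, rank 14). The latter was the widest of all 7758 day 6 peaks. Separate Oct1 peaks lay over the lower end of Crlf2 in ESCs (score 2230) and at day 3 (score 737), where the wide peak of day 6 reached too. The adjacent long noncoding RNA gene Gm8493 had 1 Oct1 peak in ESCs (score 70), 2 at day 3 (scores 269 and 473) and 2 at day 6 (scores 283 and 839). No Oct4 peak was listed within 10 kb, and Crlf2 alone of the 6 genes had none. The midpoint of the highest day 6 peak was 1000 bp from that of the ESC peak, the greatest distance among the 6 sites.

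The Fbxo47 site was the narrowest (gene ID 72973; chromosome 11, 97850311 to 97884386). The peak ran from 97884021 to 97884720 in ESCs and measured 700 bp in ESCs, 700 bp at day 3 and 600 bp at day 6. Its midpoint was 15 bp inside the upper end of the gene in ESCs, then 25 bp (day 3) and 55 bp (day 6). The score was 43029 in ESCs (rank 7), 19335 at day 3 (rank 11) and 13835 at day 6 (rank 6). An Oct4 peak of 500 bp, the smallest width in that list, lay inside it (97884061 to 97884560, score 418, rank 521). The other Oct4 peak near the gene (97841101 to 97841620, score 218) lay over the noncoding gene B230217C12Rik and had no Oct1 partner. The annotation used here lists no exons, so whether any of these peaks covers exon or intron is not stated.

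**Figure D2:**
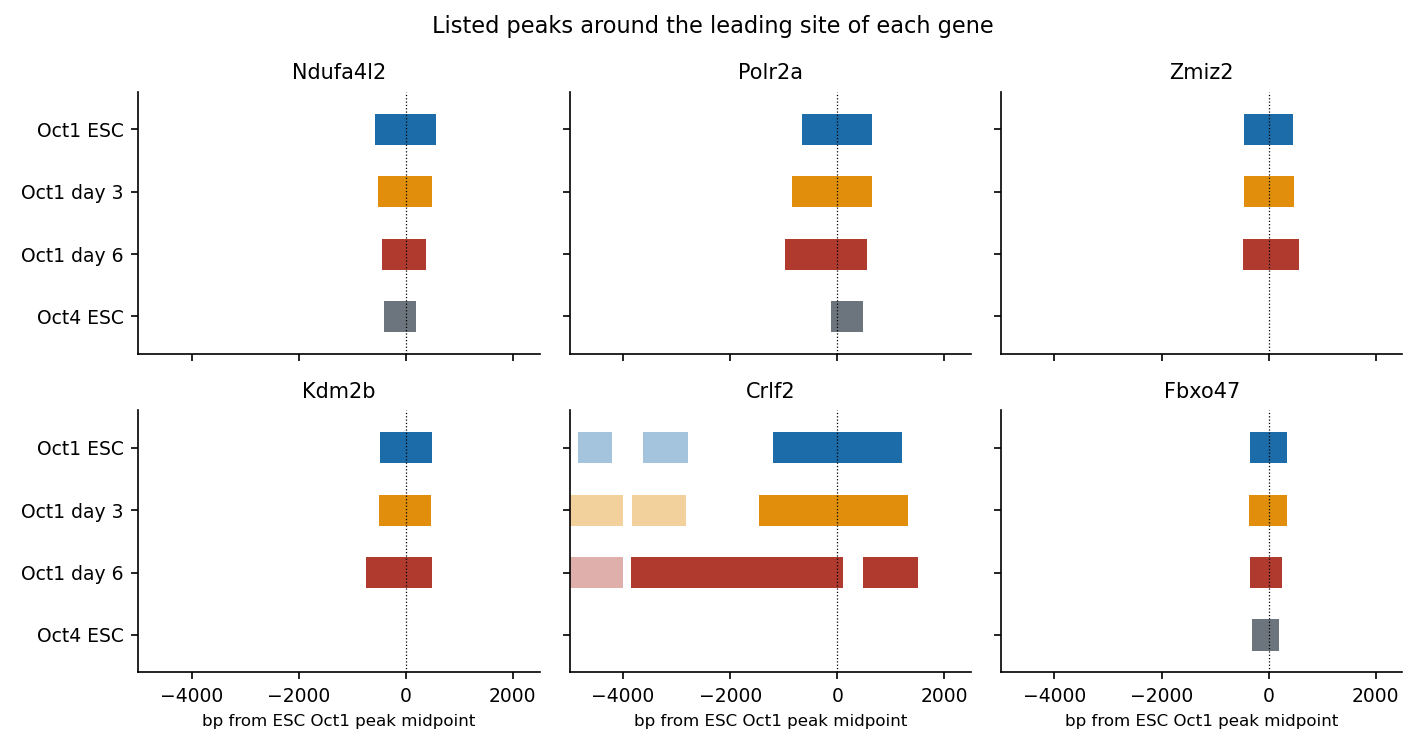
Intervals of the listed peaks around each leading site, in bp from the midpoint of the ESC Oct1 peak (horizontal), with 1 row per list and 1 library per row. Solid bars overlap the ESC leading peak and pale bars do not; peaks beyond the plotted range are left out. Oct4 bars are present at Ndufa4l2, Polr2a and Fbxo47 only, and the Crlf2 interval is split at day 6.

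Position and width were not used to choose the genes. The midpoints of the leading sites moved by a median of 15.0 bp from ESCs to day 3 and by at most 95.0 bp. Over all 1572 ESC Oct1 peaks with a day 3 peak the median was 55.0 bp. From ESCs to day 6 the medians were 85.0 bp for the 6 sites and 80.0 bp for the 1180 shared peaks, with distances for the 6 from 35 bp at Ndufa4l2 to 1000 bp at Crlf2. The 90th percentile over the shared peaks was 245 bp at day 3 and 330.0 bp at day 6, which Crlf2 passed at day 6. The median width of the leading peaks was 1060.0 bp in ESCs, 990.0 bp at day 3 and 1045 bp at day 6, against list medians of 630.0, 600.0 and 640.0 bp. Fbxo47 had width percentiles of 65.1, 74.6 and 39.6 in the same order, and was thus narrower than the list median at day 6. Wider peaks went with higher ranks across the ESC list as a whole, from a median of 1060.0 bp for ranks 1 to 10 over 830.0 bp for ranks 11 to 50 to 630.0 bp for ranks above 1000, so width and score are not separate measures.

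The Oct4 list played no part in the choice. Of the 6 leading sites, 3 overlapped an Oct4 peak (exact 95% interval 11.8 to 88.2%), as did 59.1% of all ESC Oct1 peaks. All 3 Oct4 peaks lay inside their Oct1 peak, and 1 of the 3 had its midpoint within 100 bp of the Oct1 midpoint. The share was 5 of 10 for ESC ranks 1 to 10 (18.7 to 81.3%), 42.5% for ranks 11 to 50 (27.0 to 59.1) and 32.0% for ranks 51 to 200 (24.6 to 40.1), and 59.7% for ranks above 1000 (59.0 to 60.5). The interval for the 6 sites holds all of these shares, so no difference was detectable with 6 sites. The Oct4 ranks of 59, 123 and 521 are within the highest 2.28% of that list. Intervals cover counting error only.

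The share of ESC Oct1 sites found again later fell with rank. All 10 peaks of ESC ranks 1 to 10 and all 40 of ranks 11 to 50 overlapped a day 3 peak, as did 88.0% of ranks 51 to 200 and 6.26% of ranks above 1000, against 8.88% of the whole list. A day 6 peak was overlapped by 9 of 10, 32 of 40, 48.7% and 5.09% in the same classes, against 6.66% of the whole list. Being found again at both later times was therefore shared by most of the 50 highest ESC sites, and the exception among ranks 1 to 10 was the site with ESC rank 6.

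**Figure D3:**
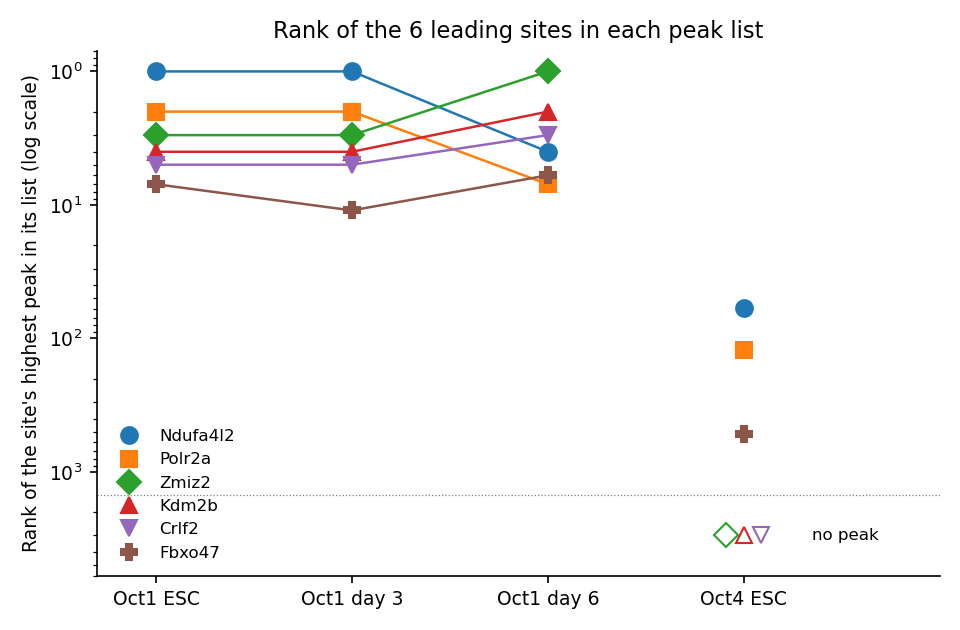
Rank of the highest peak at each of the 6 leading sites (vertical, log scale, rank 1 at the top) in the 4 lists, 1 library each; lines join the Oct1 lists and open symbols are sites with no Oct4 peak. Ranks in the Oct1 lists lie between 1 and 11, and Zmiz2 goes from rank 3 to rank 1 at day 6 while Ndufa4l2 goes from rank 1 to rank 4.

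Counted by gene, all 6 had an Oct1 peak in the body or flanks in ESCs, where 35.3% of protein-coding genes did, at day 3 (24.6% of genes) and at day 6 (41.5%). The choice fixed these counts and nothing is read from them. For Oct4 the number was 5 of 6, against 40.2% of genes, and 3 of 6 against 14.8% when all lists were shortened to the 4867 highest peaks. In all, the genes held 9 Oct1 peaks in ESCs, 10 at day 3, 11 at day 6 and 10 Oct4 peaks. Of the 10 Oct4 peaks, 3 lay at a leading site and 1 at the weak shared site in Kdm2b, and the other 6 had no ESC Oct1 peak.

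Sites outside the choice had scores in the same range, and some ranked ahead of Fbxo47 or, at day 6, of Polr2a. The ESC site with rank 6 (chromosome 15, 84620681 to 84622780, score 55217) had no protein-coding gene within 10 kb and lay over the noncoding gene Gm34201. It ranked 15 at day 3 and 19 for Oct4 and had no day 6 peak. The day 6 site with rank 5 (chromosome 6, 51178201 to 51179050, score 17966) had no annotated gene within 10 kb and ranked 526 in ESCs. Next to Fbxo47 in the ESC list came a site near Acsl3, a fatty acid activating enzyme gene, and Utp14b (score 41673, rank 8), then one at Macrod1 and Flrt1 (score 39871, rank 9) and one near Gm20783 and LOC108167694 (score 37956, rank 10). At day 3 the sites ranked 6 to 10, ahead of Fbxo47 at rank 11, were those of Acsl3, Jag2, Macrod1, Plekhg2 and LOC108167694. At day 6 ranks 8 to 10 fell to the sites of Acsl3, Phlpp1 and Jag2. The site at Plekhg2 and Zfp36, with rank 14 in ESCs and 9 at day 3, stood at rank 167 at day 6.

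Likeness to the 6 genes was measured over the 3 Oct1 lists by the worst of a site's score positions, given as the percentage of its list ranked as high or higher. Among 532 sites in all 3 Oct1 lists, 5 of the 6 leading sites took places 1 to 5, with 0.0516% for Ndufa4l2 to 0.103% for Crlf2, and Fbxo47 took place 10 with 0.226%. The most similar other site was that of Acsl3 and Utp14b (0.123%, ranks 8, 6 and 8). Next came Jag2, a Notch ligand gene, with Nudt14 (0.144%, ranks 16, 7 and 10) and Macrod1 with Flrt1 (0.193%, ranks 9, 8 and 15). Gm20783 with LOC108167694 (0.205%, ranks 10, 10 and 11) and the nuclear receptor gene Esrra with Catsperz and Kcnk4 (0.267%, ranks 19, 13 and 19) followed. Of these 5 sites, those of Jag2 and Macrod1 had an Oct4 peak, with ranks 921 and 255. Sites shared by several genes count once.

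Promoter windows were then compared along the score ranks to place the Kdm2b sequence. In the ESC Oct1 list, 19 of the 50 highest peaks contained a whole promoter window, and the window nearest the midpoint held the octamer in 2 of these (10.5%, exact 95% interval 1.30 to 33.1). The share was 53.3% for ranks 51 to 200 (24 of 45 peaks, 37.9 to 68.3), 31.2% for ranks 201 to 500 (21.1 to 42.7) and 8.33% for ranks 501 to 1000 (3.42 to 16.4). Beyond rank 1000 it was 2.22% (1.11 to 3.93), near the 1.74% of all windows. At day 3 the shares in the same order were 18.2%, 32.4%, 13.2%, 5.79% and 1.75%. At day 6 they were 15.6%, 12.2%, 6.60%, 2.90% and 0.820%. In the Oct1 lists of ESCs and day 3 the share was highest at ranks 51 to 200. The intervals of ranks 1 to 50 and 51 to 200 do not overlap in ESCs but do at day 3 and day 6. A window covers 300 bp of a peak. The median ESC peak width was 1060.0 bp at ranks 1 to 10, 830.0 bp at ranks 11 to 50 and 710.0 bp at ranks 51 to 200. A smaller part of the highest peaks was thus searched, and octamers outside the windows were not counted. In the Oct4 list few peaks contained a window, and the octamer was in 3 of 4 at ranks 1 to 50 (75.0%, 19.4 to 99.4) and in 1 of 17 at ranks 51 to 200 (5.88%, 0.149 to 28.7).

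**Figure D4:**
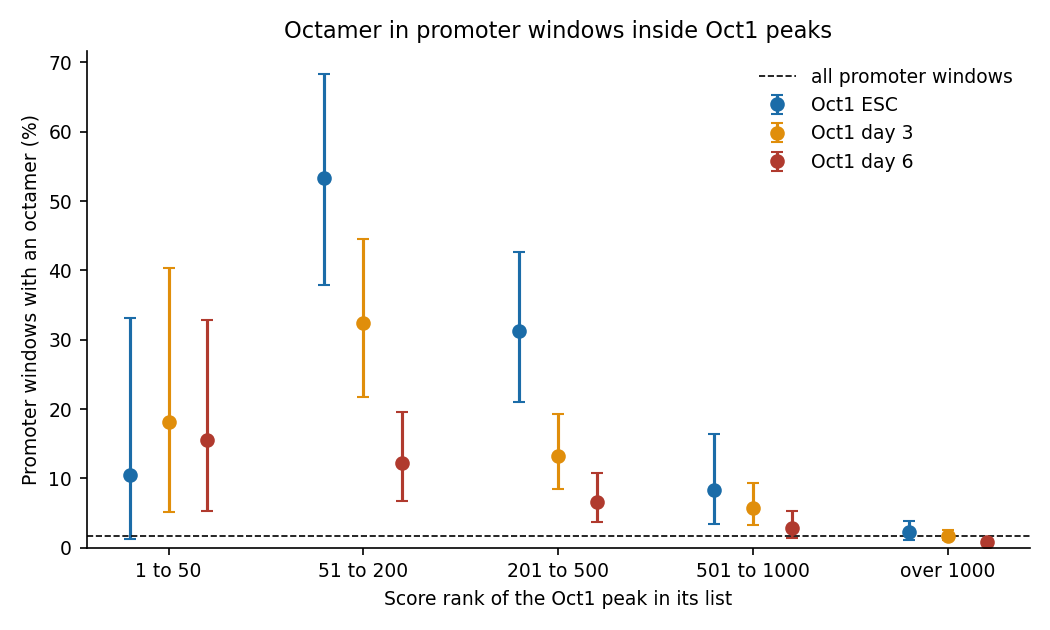
Percentage of promoter windows with an exact octamer on either strand (vertical), for the window nearest the midpoint of each Oct1 peak that contains one, by score rank of the peak (horizontal), in the 3 Oct1 lists. Bars are exact 95% intervals for counting, and the dashed line is the share of all windows, 1.74%. In ESCs ranks 51 to 200 reach 53.3%, against 10.5% for ranks 1 to 50. The letters of the peaks outside the windows were not searched.

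The direct repeat was searched in the same windows. With up to 2 letters between its copies and 1 letter allowed to differ, it was found in 0.289% of all windows. Among windows inside ESC Oct1 peaks it occurred in 3 of 19 at ranks 1 to 50 (15.8%), in none of those at ranks 51 to 1000 (45, 77 and 84 windows in the 3 classes) and in 1 of 496 beyond. At day 3 it occurred in 3 of 22 at ranks 1 to 50 (13.6%), in 1 of 71 at ranks 51 to 200 (1.41%) and in none beyond. At day 6 it occurred in 1 of 32 at ranks 1 to 50 (3.12%), or in 2 of 32 (6.25%) when every window inside a peak was searched, and beyond rank 50 in 1 window, among the 3172 of ranks above 1000. Searching every window changed none of the ESC and day 3 counts of the repeat. In the Oct4 list the repeat was in 1 of 4 windows at ranks 1 to 50 and in none beyond. The 3 windows at ESC ranks 1 to 50 belonged to Kdm2b (ESC rank 4), Gm34201 (rank 6) and Gm20753 (rank 21, at the site near Phlpp1). They are printed for comparison, with the matched letters in capitals. All lie on the minus strand, at chr5:122900388-122900399 for Kdm2b, chr15:84622188-84622199 for Gm34201 and chr1:106171617-106171628 for Gm20753.
Kdm2b: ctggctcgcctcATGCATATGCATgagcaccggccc
Gm34201: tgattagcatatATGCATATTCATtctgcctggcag
Gm20753: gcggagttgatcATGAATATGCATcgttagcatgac

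In each of these 3 the copies of the repeat stood side by side. The Gm34201 site was listed for Oct4 too, and the sites of Kdm2b and Gm20753 were not. At day 6 the Gm20753 site ranked 9 and the Gm34201 site had no peak. A match is a description of letters, and binding to it was not tested. The classes of rank and the looser repeat were chosen after the windows had been seen. Kdm2b, chosen for its Oct1 rank, is 1 of the 3, and the exact repeat was in no window of any other peak. The counts of the repeat by rank therefore carry no test.

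Relatives and partners of the 6 genes were examined through 6 lists, in which 56 genes other than the 6 were matched. Taken as 1 group, 19 of 56 (33.9%) had an ESC Oct1 peak in the body or within 10 kb, 27 (48.2%) one at day 3 and 42 (75.0%) one at day 6, and 25 (44.6%) an Oct4 peak. The shares of all protein-coding genes, in the same order, were 35.3%, 24.6%, 41.5% and 40.2%. The ESC and Oct4 counts depended on the flank: for the gene body alone, 9 of 56 (16.1%) had an ESC Oct1 peak against 23.9% of genes, and 9 (16.1%) an Oct4 peak against 28.0%. The day 3 and day 6 counts for the gene body were 22 (39.3%) and 37 (66.1%), against 17.7% and 33.6% of genes. None of the 56 had a peak in the highest 1% of the ESC or day 3 Oct1 scores, and at day 6 Cbx8 did (score 3924, rank 56 of 7758), a Polycomb gene that shares this peak with its neighbour Cbx2.

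The single lists are small and are set beside the shares of all protein-coding genes, 35.3% in ESCs, 24.6% at day 3 and 41.5% at day 6. Of the 11 RNA polymerase II subunit genes other than Polr2a, 6 (54.5%) had an Oct1 peak in ESCs, 6 (54.5%) at day 3 and 10 (90.9%) at day 6. The highest of them was at Polr2g in ESCs (within the top 3.46% of scores) and Polr2e at day 6 (6.63%). Of the 11 PRC1.1 and Kdm2 genes other than Kdm2b, 3 (27.3%) had an Oct1 peak in ESCs, 9 (81.8%) at day 3 and 10 (90.9%) at day 6. Kdm2a, the paralogue of Kdm2b, had none in ESCs and was within the top 23.0% at day 3 and 4.19% at day 6. Rnf2, the ubiquitin ligase of the complex, had none in ESCs, then 4.05% and 9.86%. Of the 5 Zmiz and PIAS genes besides Zmiz2, 2 had an Oct1 peak in ESCs, 4 at day 3 and 5 at day 6. Zmiz1 had the most, with 12 Oct1 and 27 Oct4 peaks in ESCs, none in the highest 1% of scores. Pias1, Pias2 and Pias3 had neither in ESCs. Numbers of peaks were not adjusted for gene length.

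Of 12 Ndufa4 and cytochrome c oxidase genes besides Ndufa4l2, 2 had an Oct1 peak in ESCs, 0 at day 3 and 6 at day 6. Ndufa4 itself had no peak in any list. In the TSLP receptor list, 4 of 9 genes (44.4%) had an Oct1 peak in ESCs, 4 (44.4%) at day 3 and 5 (55.6%) at day 6. Il7r, the partner chain of Crlf2, had none in any list, and Tslp had 1 at day 3 (top 72.3%). Of the 9 F-box and SCF genes, 3 (33.3%) had an Oct1 peak in ESCs, 5 (55.6%) at day 3 and 6 (66.7%) at day 6. A relative with a peak among the highest scores would itself have been open to the choice, so nothing is read from the rank of the relatives against that of the 6 genes.

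**Figure D5:**
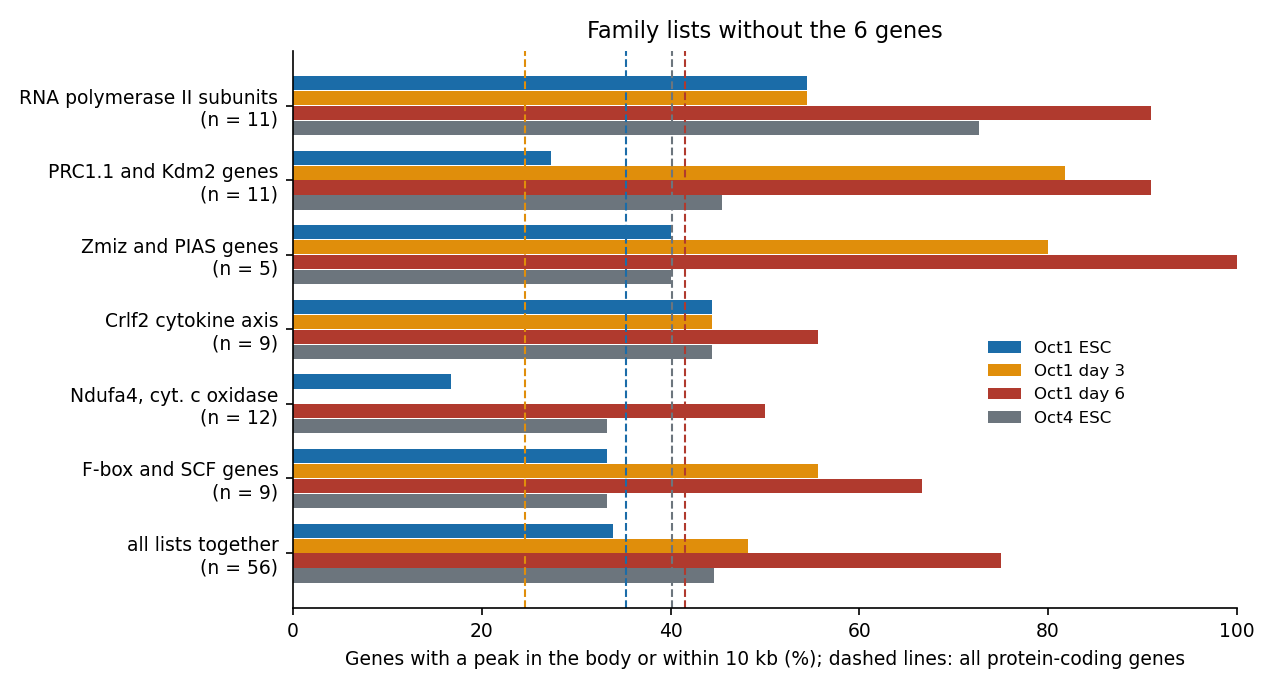
Percentage of genes with a listed peak in the body or within 10 kb (horizontal) in 6 lists of related genes and in all lists together, without the 6 genes themselves, for the 4 peak lists (bar colours, 1 library each). Dashed lines give the share over all protein-coding genes in the same colours. At day 6 the 56 genes together reach 75.0% against 41.5%. Day 6 peaks contained a whole promoter window more often than ESC peaks, and whether this bears on the difference was not tested.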

How the data were processed

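Binding was measured by ChIP-seq, and 4 peak lists, 1 per library and not pooled, were used. Reads were aligned with Novoalign 3.8.2 to mm10 (GRCm38), per the submitters' processing notes. The peak caller, its threshold and its control are not given in the sources used here. In each deposited list the authors gave every peak a score, a whole number with no unit. The lists hold no read counts, so depth is unknown. Coordinates are 1-based and, in the lists, rounded to 10 bp.

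Peaks were assigned to genes of the RefSeq table (GRCm38.p6, chromosomes 1 to 19, X and Y) when they shared at least 1 bp with the gene body extended by 10 kb. Peaks of different lists counted as shared when they had 1 bp or more in common. Computation used Python 3.11.15 with pandas 2.3.3, scipy 1.17.1 and numpy 2.4.6, and figures used matplotlib 3.10.9. The functions were checked on simulated data. Shares carry exact Clopper-Pearson 95% intervals, and since every group had 1 library no difference between libraries was tested. Alternatives were other flanks, stricter score thresholds, stricter overlap, rank by score per width and looser motifs. The genes and lists were chosen with earlier results of these data known. Genes named besides the 6 are neighbours within 10 kb of a leading site, genes at sites ranked 1 to 10 in an Oct1 list, list genes in the top 1% of Oct1 scores, and the 10 genes most like the 6 by their worst score position in the 3 Oct1 lists, which came to 11 because the last site has 3 genes. Relatives, partners and windows named beyond that were picked after their values were seen.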

Additional observations from a re-analysis of the deposited data

How the results depend on the processing

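In all, 90 results gave 364 alternative values, of which 251 were labelled as unchanged and 113 as moved. Of the 113, 62 were for single lists of relatives, single site ranks or the direct repeat. The labels followed no single tolerance, so an unchanged value is not always close to the reported one. The Oct4 octamer share at ranks 501 to 1000 went from 2.94% to 5.66% with overlapping windows and was labelled unchanged. The day 3 background share went from 24.6% to 21.5% with 5 kb and was labelled moved. The looser repeat, the other window rules and leaving out Crlf2 were chosen after seeing the data. Fewer peaks, shorter flanks and stricter overlap lower counts by their construction, and the cause of other shifts was not tested. All 6 genes kept an Oct1 peak in each Oct1 list under every flank and score threshold tried. Their choice by score fixed this in advance for the score thresholds and the wider flanks, so nothing is read from it. These values are counted among the 251. Genes with an Oct4 peak numbered 3 in place of 5 when lists were shortened to 4867 peaks. Within a flank of 50 kb the genes held 26 ESC Oct1, 17 day 3, 22 day 6 and 32 Oct4 peaks; Oct4 peaks numbered 6 in the gene body alone and 5 in shortened lists.

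Background shares for ESC Oct1, day 3, day 6 and Oct4, in this order, were 23.9%, 17.7%, 33.6% and 28.0% for the gene body, 25.3%, 18.9%, 34.8% and 29.3% with 1 kb, and 29.5%, 21.5%, 38.0% and 34.0% with 5 kb. They were 44.2%, 29.9%, 47.3% and 49.0% with 20 kb, 58.7%, 41.5%, 57.9% and 62.5% with 50 kb, and 24.3%, 15.0%, 25.0% and 26.8% with the 50% of peaks with higher scores. In shortened lists they were 16.5% for ESC Oct1, 30.1% for day 6 and 14.8% for Oct4.

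Of the 56 relatives, those with an ESC Oct1 peak numbered 9 for the gene body, 11 with 1 kb, 44 with 50 kb, 9 with the higher-scoring 50% and 8 in shortened lists. For Oct4 the numbers were 9, 9, 46, 16 and 6, and for day 3 the higher-scoring 50% gave 17. With midpoints within 100 bp as the rule, 3 of 6 leading sites were shared with day 6 and 1 with Oct4. Ranked by score per width, the lowest-placed leading site stood at 13 in ESCs (Crlf2), 13 at day 6 (Polr2a) and 235 for Oct4 (Fbxo47). An octamer with 1 letter differing was found in windows of 1 gene in place of 0. No paired analysis was possible because each group held 1 library, and no library could be left out.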

Other observations

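Of the 50 highest ESC Oct1 sites, 9 had no Oct1 peak at day 6, and all 9 still had one at day 3, with day 3 ranks from 15 to 155. They lay over Gm34201 (ESC rank 6) and near Hormad2, a meiotic chromosome axis gene (rank 13), Rdm1 (rank 25), Epn2 (rank 32), Slc8b1 and Plbd2 (rank 42), Taf12 and Gmeb1 (rank 47), Camta1 (rank 48) and Gm11634 (rank 50). The remaining site, with rank 27, had the noncoding gene 9630028I04Rik and no protein-coding gene within 10 kb. The Taf12 site also lay near Rnu11, which encodes the U11 small nuclear RNA of the minor spliceosome. An Oct4 peak was present at 5 of these 9 sites and at 17 of the 41 sites that had a day 6 peak. Over all ESC Oct1 peaks the share was 59.1%, and no difference was tested. At the 5 sites the Oct4 ranks ran from 2 at Camta1 to 15754 at Taf12. With 1 library per time, whether the absence at day 6 exceeds the variation between libraries was not tested. These sites were picked after their values were seen.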
